A study of Mus musculus with 6 samples.

Results

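A set of 10 genes used as marks of the developmental origin of fat depots was followed in the brown adipose tissue (BAT) of mice on a low-fat or a high-fat diet. The genes were *Lhx8*, *Zic1*, *Tbx15*, *Tbx1*, *Tmem26*, *Hoxc8*, *Hoxc9*, *Hoxc10*, *En1* and *Tcf21*, chosen by symbol among the 47729 genes quantified in each mouse, and all 10 were found once. The samples were BAT of wild type male C57BL/6J mice, 3 fed a 45% high-fat diet (HFD) and 3 fed a standard rodent diet (LFD) between 6 and 10 weeks of age. The pad was the right interscapular BAT of single-housed mice, and the sequenced mice were those of highest, middle and lowest fat mass on each diet. Mice are numbered by the replicate number of their labels. The labels give no difference between the groups other than the diet.

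Brown, beige and white adipocytes keep the imprint of where their precursors arose in the embryo. Interscapular brown adipocytes descend from somite cells that pass through a stage marked by *En1*, and they share this origin with dermis and back muscle. Transcription factors of the homeobox, zinc finger and T-box families stay active in the adult cells and are read as depot labels. *Lhx8* and *Zic1* are used as labels of classical brown fat, *Tbx1* and *Tmem26* of beige fat, and *Hoxc8*, *Hoxc9*, *Hoxc10* and *Tcf21* of white fat, while *Tbx15* is a label of brown and subcutaneous fat. A Hox gene cluster is read along its length, so that genes of low paralogue number mark anterior and genes of high number posterior parts of the body.

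Levels are given as TPM, transcript abundances scaled by gene length and library total, which can be set side by side between genes. Differences between diets are log2 fold changes of HFD over LFD from edgeR's quasi-likelihood test on the estimated counts of all 17668 genes that passed a filter on low counts, with Benjamini-Hochberg adjusted p-values. To be called, a gene had to have an adjusted p below 0.01 together with a log2 fold change beyond 1.5 in either direction. Between 17156991 and 21603487 counts were available per mouse. Mitochondrially encoded genes took 3.87% to 22.7% of them.

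The samples were first checked against markers of the tissue. *Ucp1*, an uncoupling protein of BAT mitochondria, was measured at 2728, 4021 and 796 TPM for HFD-fed mice 1 to 3 against 443, 11.03 and 76.0 TPM for LFD-fed mice 1 to 3. All 6 mice expressed *Ucp1*, and each LFD-fed mouse lay below each HFD-fed mouse, with LFD replicate 2 the lowest. The summed level of 20 skeletal muscle markers was 28.6 to 398 TPM in HFD-fed and 2256 to 15604 TPM in LFD-fed mice, and 12 markers of adipose progenitors and fibroblasts summed to 2065 TPM in LFD replicate 1 and 33259 TPM in LFD replicate 3, against 4182 to 6293 TPM in HFD-fed mice. The LFD libraries thus differed from the HFD libraries and from each other in tissue markers, and results are given with each mouse left out where this moved them. In bulk tissue, fewer cells of a type and less RNA per cell cannot be told apart.

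**Figure D1:**
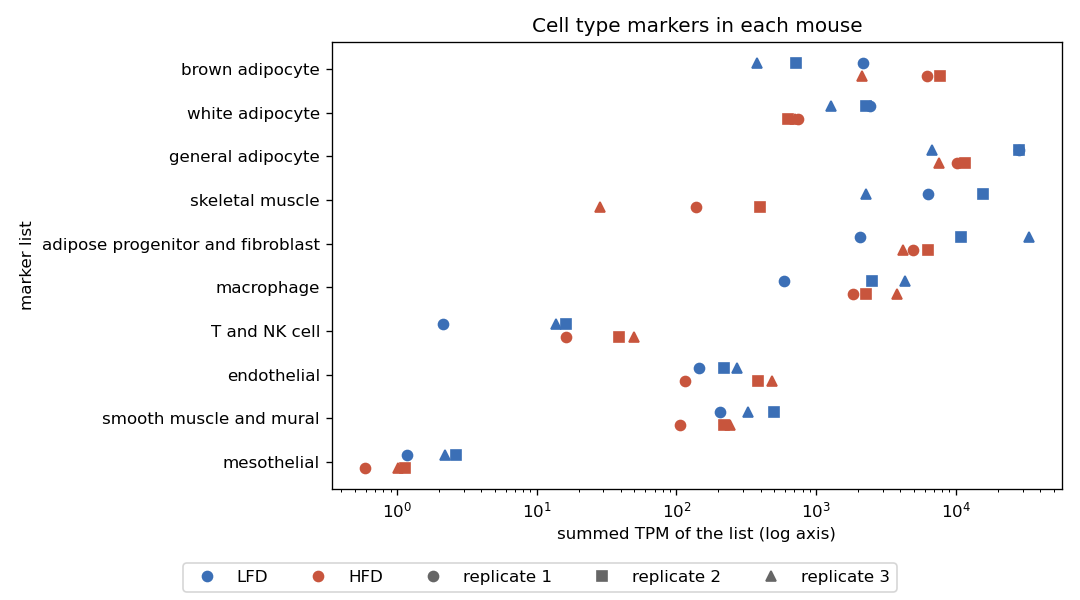
Summed TPM of marker lists (horizontal log axis) in each mouse, by list (vertical axis), with LFD in blue, HFD in red and a symbol for each replicate number. Skeletal muscle markers lay between 28.6 and 398 TPM in HFD-fed and between 2256 and 15604 TPM in LFD-fed mice, and brown adipocyte markers lay higher in each HFD-fed mouse than in LFD replicates 2 and 3.

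Promoter sequences are shown for the tested genes of the group that have an entry in the RefSeq table (GRCm38.p6). They are the brown fat labels *Lhx8* and *Zic1*, the somite stage mark *En1* and the beige label *Tmem26*. Each sequence runs 5′ to 3′ on the strand of the gene, from 250 bases before its RefSeq start to the first base that the annotation places in an exon. Capitals mark CpG dinucleotides.
*Lhx8*, chr3:154330660-154330810, minus strand: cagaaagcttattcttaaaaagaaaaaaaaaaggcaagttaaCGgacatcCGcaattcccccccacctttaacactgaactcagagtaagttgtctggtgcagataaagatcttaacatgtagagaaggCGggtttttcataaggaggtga
*Zic1*, chr9:91365811-91366018, minus strand: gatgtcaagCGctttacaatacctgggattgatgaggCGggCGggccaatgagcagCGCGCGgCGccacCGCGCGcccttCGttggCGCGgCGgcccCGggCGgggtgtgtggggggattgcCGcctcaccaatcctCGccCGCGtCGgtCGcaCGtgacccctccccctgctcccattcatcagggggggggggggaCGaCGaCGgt
*En1*, chr1:120602237-120602417, plus strand: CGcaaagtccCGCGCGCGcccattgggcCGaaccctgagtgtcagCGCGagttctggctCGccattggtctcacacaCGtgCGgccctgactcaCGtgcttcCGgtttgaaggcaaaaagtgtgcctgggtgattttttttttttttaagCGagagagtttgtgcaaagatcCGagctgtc
*Tmem26*, chr10:68723496-68723645, plus strand: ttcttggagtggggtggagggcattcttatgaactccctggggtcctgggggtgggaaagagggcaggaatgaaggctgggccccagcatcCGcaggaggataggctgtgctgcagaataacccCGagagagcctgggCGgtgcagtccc
The promoters fell into CpG-rich and CpG-poor ones. In the 250 bases before the start, which include the exon part left out above, *Zic1* had 27 and *En1* 19 CpG dinucleotides, while *Lhx8* had 4 and *Tmem26* 6, against a median of 6 over 32851 promoters. Among the letters searched on both strands, CCAAT occurred 2 times each in *Zic1* and *En1* and in neither of the others (33.8% of all promoters hold it), and GGGCGG occurred 2 times each in *Zic1* and *Tmem26* (32.7%). The E-box CANNTG occurred 2 times in *En1*, 1 time each in *Zic1* and *Tmem26* and not in *Lhx8* (66.2%). The homeobox motif TAATTA (4.84%) and the T-box motif GGTGTGA (3.33%) were in none of the 4 windows. The table had no entry for *Tbx15*, *Hoxc8*, *Hoxc9* or *Hoxc10*.

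*Tbx15* had the highest mean level of the 10 genes, with 13.7 TPM over the 6 mice, and was higher than *Lhx8*, the next in order, in 6 of 6 mice. *Lhx8* (8.24 TPM), *Hoxc8* (4.64 TPM) and *Zic1* (4.51 TPM) followed. *Hoxc8* was above *Zic1* in 3 of 6 mice, so their order is not settled by these samples, and *Lhx8* was above *Hoxc8* in 4 of 6. *En1* (1.89 TPM) lay under *Zic1* in 6 of 6 mice and above *Tmem26* (1.18 TPM) in 4 of 6. *Hoxc9* (0.238 TPM) and *Tbx1* (0.128 TPM) were near the limit of detection. *Hoxc10* had 1 count in 1 mouse, and *Tcf21* had 0 counts in all 6, which allows up to 3 counts per library, or 0.139 to 0.175 CPM (counts scaled to the library total), by counting error alone. The edgeR filter kept 7 genes and left out *Tbx1*, *Hoxc10* and *Tcf21*.

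**Figure D2:**
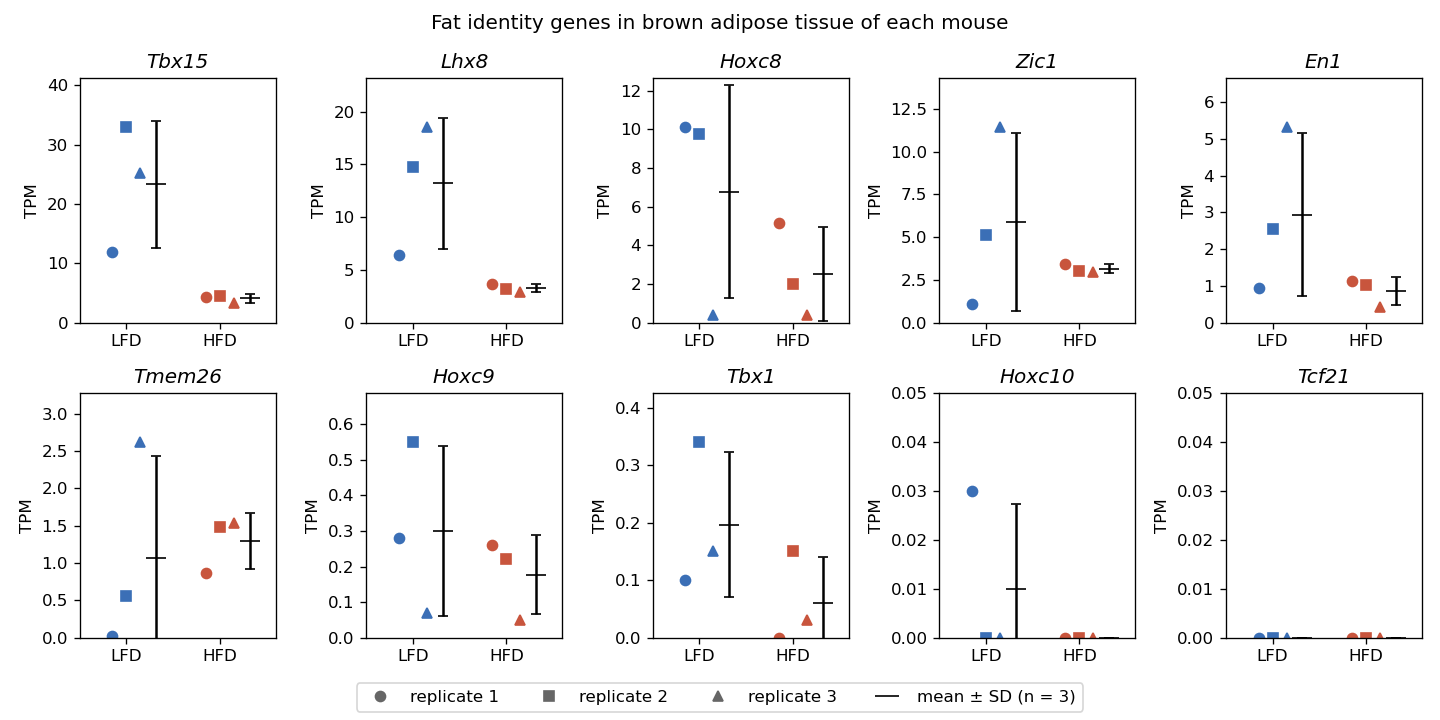
TPM (vertical axes, each from 0) of the 10 genes in each LFD-fed (blue) and HFD-fed (red) mouse, ordered by mean level, with the mean ± SD of 3 mice in black; error bars that reach below 0 are cut at the axis. *Tbx15* and *Lhx8* lie lower in all HFD-fed than in all LFD-fed mice, and the values of the other genes overlap.

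None of the 7 tested genes was called by edgeR, and 0 of all 17668 tested genes were (0.0%). At an unadjusted p under 0.05 there were 2 of the 7, *Tbx15* and *Lhx8*, both lower in HFD-fed mice, where 10.5% of all tested genes passed in either direction, 6.62% with a lower and 3.86% with a higher level. The same 2 genes had log2 CPM values that did not overlap between the diets, against 15.9% of all tested genes in either direction, 9.23% with HFD-fed mice below and 6.72% with them above. Over the 7 tested genes, 6 had a negative log2 fold change, where 54.4% of all tested genes did. Among these 6, the standard error was larger than the estimate for *Hoxc8*, *Hoxc9* and *Zic1*. The median of the 7 was -1.11, beside -0.05 over all tested genes. The 3 untested genes have no such value.

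*Tbx15* encodes a T-box transcription factor of brown and subcutaneous fat that is also active in fast muscle fibres. The gene (ENSMUSG00000027868) lies on chromosome 3 from 99240381 to 99354259 on the plus strand (GRCm38, GENCODE M21). Its level was 4.38, 4.56 and 3.24 TPM for HFD-fed mice 1 to 3 against 11.8, 33.0 and 25.3 TPM for LFD-fed mice 1 to 3. In TPM the HFD-fed mice lay close together, and the lowest LFD-fed mouse was above the highest HFD-fed mouse. In log2 CPM the HFD-fed mice ran from 2.75 to 3.90 and the LFD-fed mice, less spread there, from 5.23 to 5.85. HFD-fed mice averaged 4.06 ± 0.716 TPM (SD, n = 3) and LFD-fed mice 23.4 ± 10.7 TPM (SD, n = 3). On the log2 scale the difference was -2.11 (standard error 0.36), a 4.32-fold higher level in LFD-fed mice, with an unadjusted p of 6.71e-04 and an adjusted p of 0.170 by edgeR, which ranked it 61 of 17668 genes. DESeq2, the tool used by the study, called *Tbx15*, with a log2 difference of -2.09, a standard error of 0.42 and an adjusted p of 6.81e-05, where 2.06% of genes with an adjusted p were called. *Tbx15* overlaps *Gm43120* on the opposite strand, which had 2 to 21 counts per mouse against 155 to 1207 for *Tbx15*.

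*Lhx8* encodes a LIM-homeobox transcription factor used as a label of classical brown fat. The gene (ENSMUSG00000096225) lies on chromosome 3 from 154306294 to 154330659 on the minus strand. Its level was 3.65, 3.22 and 2.91 TPM for HFD-fed mice 1 to 3 against 6.37, 14.8 and 18.5 TPM for LFD-fed mice 1 to 3. As for *Tbx15*, the diets did not overlap, and in TPM the spread was wider in LFD-fed mice. In log2 CPM the HFD-fed mice ran from 1.73 to 2.52 and the LFD-fed mice from 2.97 to 3.75, without a wider LFD spread. HFD-fed mice averaged 3.26 ± 0.372 TPM (SD, n = 3) and LFD-fed mice 13.2 ± 6.22 TPM (SD, n = 3). The log2 fold change was -1.43 (standard error 0.36), a 2.69-fold higher level in LFD-fed mice (unadjusted p = 0.00608, adjusted p = 0.241 by edgeR). DESeq2 gave an adjusted p of 0.0196 and did not call it either. With any 1 mouse left out, the log2 fold change of *Lhx8* stayed between -1.72 and -1.27 and that of *Tbx15* between -2.45 and -1.87.

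The level of skeletal muscle RNA differed between the same mice. Of the 20 muscle markers, 19 had an unadjusted p under 0.05 and all 20 a negative log2 fold change (median -6.17). HFD replicate 3 was the lowest mouse for the summed muscle markers, for *Tbx15* and for *Lhx8*. LFD replicate 2 was the highest for the muscle markers and for *Tbx15*. Within the LFD-fed mice the order otherwise differed, since LFD replicate 3, with the lowest muscle level (2256 TPM, against 6365 TPM in LFD replicate 1), had more *Tbx15* and more *Lhx8* than LFD replicate 1. With the mean log2 CPM of the muscle markers as a covariate, edgeR gave a log2 fold change of -0.94 for *Tbx15* (standard error 0.67, unadjusted p = 0.210) and -1.25 for *Lhx8* (standard error 0.86, unadjusted p = 0.198), in a fit where the muscle level and the diet nearly coincide. The part of muscle RNA in these differences was not tested beyond this fit.

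*Zic1*, a zinc finger transcription factor used as a label of brown fat, overlapped between the diets. It lies on chromosome 9 from 91358058 to 91365810, and its level was 3.44, 3.01 and 2.98 TPM for HFD-fed mice 1 to 3 against 1.09, 5.11 and 11.4 TPM for LFD-fed mice 1 to 3. In TPM the HFD-fed mice were alike, and the LFD-fed mice lay on either side of them with a 10.5-fold range. In log2 CPM the HFD-fed mice were less alike, at 3.72, 2.88 and 2.62. LFD-fed mice 1 to 3 were at 1.54, 3.36 and 3.88, with LFD replicate 2 inside the HFD range. The edgeR estimate was -0.07 on the log2 scale, with a standard error of 0.61 and an adjusted p of 0.986. The ratio of *Zic1* to *Lhx8* was 0.943, 0.935 and 1.02 in HFD-fed and 0.171, 0.346 and 0.618 in LFD-fed mice, and these values did not overlap (exact two-sided permutation p = 0.1, the smallest that 3 against 3 allows; 0.2 after adjustment over 4 ratios, which were picked after the levels were seen). The ratio of *Zic1* to *Tbx15* did not overlap either, with 0.785, 0.660 and 0.920 in HFD-fed and 0.0922, 0.155 and 0.452 in LFD-fed mice (exact two-sided permutation p = 0.1). Both denominators, *Lhx8* and *Tbx15*, were already without overlap between the diets, so the ratios are no separate result. The ratio of *Tbx15* to *Lhx8* overlapped, with 1.20, 1.42 and 1.11 in HFD-fed and 1.86, 2.23 and 1.37 in LFD-fed mice (exact two-sided permutation p = 0.2). *Zic1* shares its locus with *Zic4* on the opposite strand, which had 4 to 39 counts per mouse, lowest as *Zic1* was in LFD replicate 1.

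*En1*, a homeobox gene of the embryonic dermomyotome from which brown fat arises, was detected in all 6 adult mice. It lies on chromosome 1 from 120602418 to 120607992, and its level was 1.13, 1.03 and 0.41 TPM for HFD-fed mice 1 to 3 against 0.93, 2.54 and 5.32 TPM for LFD-fed mice 1 to 3. LFD replicate 1 lay among the HFD-fed mice and the other LFD-fed mice above them. The log2 fold change was -1.23 (standard error 0.65, unadjusted p = 0.103, adjusted p = 0.583 by edgeR). It was -1.84 (unadjusted p = 0.0404 by edgeR) without HFD replicate 1, -0.83 without HFD replicate 3 and -0.73 without LFD replicate 3, so the size of the difference rests on single mice.

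Of the beige labels, *Tmem26*, a transmembrane protein of the cell surface, was detected and *Tbx1*, a T-box transcription factor, nearly was not. The gene *Tmem26* (chromosome 10, positions 68723646 to 68782650) gave 0.86, 1.48 and 1.54 TPM for HFD-fed mice 1 to 3 against 0.02, 0.56 and 2.62 TPM for LFD-fed mice 1 to 3. LFD replicate 1 held 2 counts and LFD replicate 3 held 156, a 131-fold range in TPM within 1 diet. By edgeR *Tmem26* differed by 0.79 on the log2 scale, with a standard error of 1.04 and an adjusted p of 0.878. The estimate was 0.21 without LFD replicate 1, 0.51 without LFD replicate 2, 2.44 (unadjusted p = 0.0323 by edgeR) without LFD replicate 3 and 1.63 with the replicate number as a block, so its size rests on single LFD-fed mice. *Tbx1* (chromosome 16 from 18580979 to 18590671) had 0, 4 and 1 counts in HFD-fed and 3, 8 and 3 counts in LFD-fed mice, too few for a comparison.

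*Hoxc8*, *Hoxc9* and *Hoxc10* are neighbours in the *Hoxc* cluster on chromosome 15 and are read as labels of white fat. The gene *Hoxc8* (positions 102990607 to 102994111) gave 5.17, 1.97 and 0.41 TPM for HFD-fed mice 1 to 3 against 10.1, 9.78 and 0.40 TPM for LFD-fed mice 1 to 3. The lowest mouse of each diet was replicate 3, at nearly the same level, and the diets overlapped. The edgeR estimate was -1.11 on the log2 scale, with a standard error of 1.36 and an adjusted p of 0.864, with a range of -2.70 without HFD replicate 1 to -0.24 without LFD replicate 1. *Hoxc9* (from 102976439 to 102985099) was lower than *Hoxc8* in every mouse, with 0.26, 0.22 and 0.05 TPM in HFD-fed and 0.28, 0.55 and 0.07 TPM in LFD-fed mice. Replicate 3 was again the lowest of each diet, on 2 counts in both. The edgeR estimate for *Hoxc9* was -0.48, with a standard error of 0.94 and an adjusted p of 0.929. *Hoxc10* (from 102966796 to 102971893) had 1 count in LFD replicate 1 and 0 in the other mice. *Hoxc5* is annotated across all of these genes on the same strand, and the posterior spread that the authors' program gives for shared reads was at most 3.88% of the count for *Hoxc8* and, on the 2 counts of HFD replicate 3, 18.0% for *Hoxc9*. *Tcf21* (chromosome 10 from 22817281 to 22820174), a basic helix-loop-helix factor of white fat precursors, was listed at 0 in all mice.

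**Figure D3:**
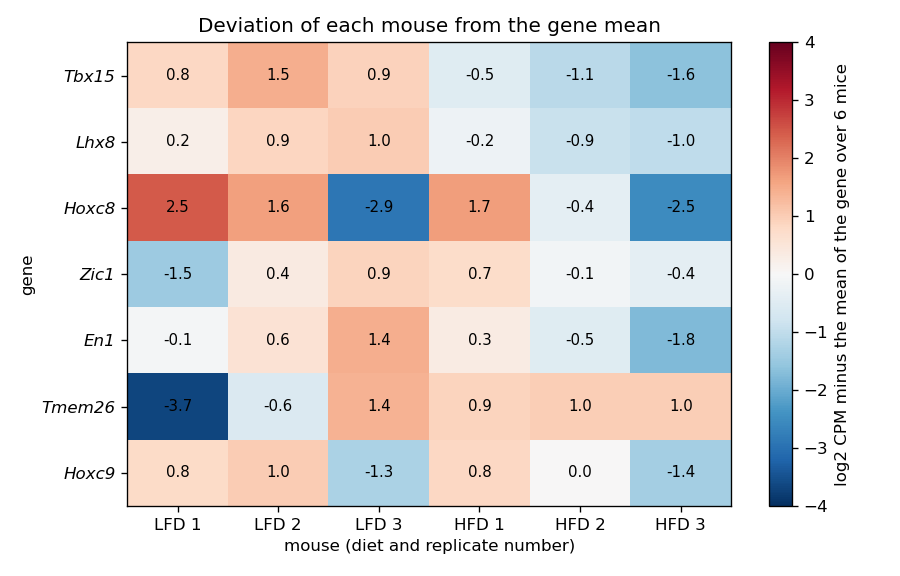
Log2 CPM of each of the 7 tested genes (rows) in each mouse (columns, by diet and replicate number) minus the mean of the gene over the 6 mice, with blue below and red above it. *Tbx15* and *Lhx8* are above their mean in all LFD-fed mice, *Hoxc8* is 2.88 below it in LFD replicate 3 and 2.51 below it in HFD replicate 3, and *Tmem26* is 3.68 below it in LFD replicate 1.

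**Figure D4:**
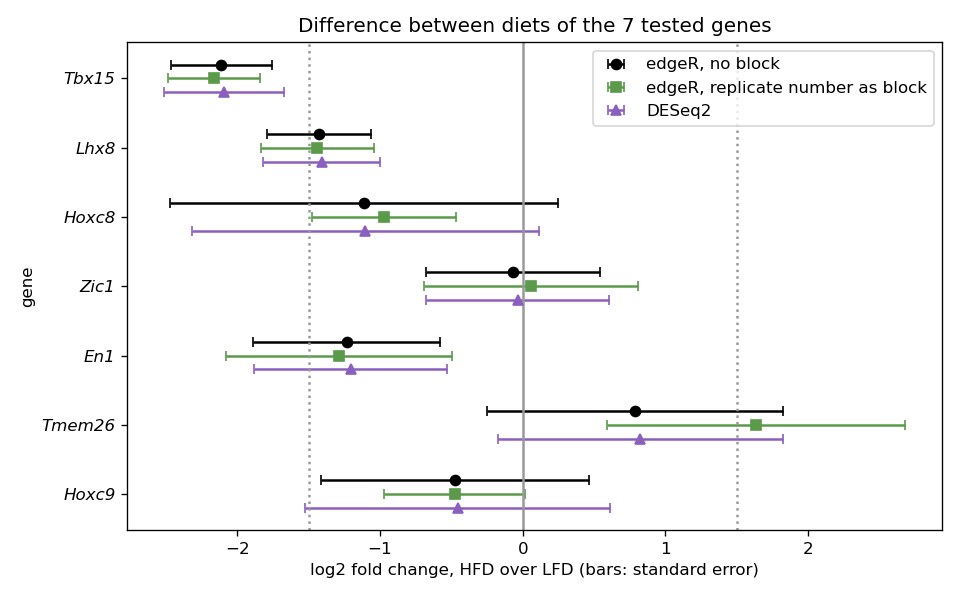
Log2 fold change of HFD over LFD (horizontal axis) with its standard error for the 7 tested genes (vertical axis), from edgeR without and with a block for the replicate number and from DESeq2; dotted lines mark an absolute value of 1.5. *Tbx15* lies beyond -1.5 in all 3 fits, from -2.16 to -2.09, and *Lhx8* at -1.44 to -1.41.

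The other 36 genes of the Hox clusters put the *Hoxc* values in context. Of all 39 Hox genes, 16 had a mean of at least 1 TPM, 12 of them among the 15 genes of paralogue groups 4 to 8 and 4 among the 8 of groups 1 to 3. None of the 7 genes of groups 9 and 10 and none of the 9 of groups 11 to 13 reached it, and 7 of the last had 0 TPM in every mouse. *Hoxc8* was thus the last gene of its cluster with a clear signal, between *Hoxc6* (6.51 TPM) and *Hoxc9* (0.238 TPM). The highest Hox gene was *Hoxd8* with 9.74 TPM. In replicate 3 of both diets all 4 *Hoxc* genes over 1 TPM (*Hoxc4*, *Hoxc5*, *Hoxc6* and *Hoxc8*) were at their lowest of that diet, while the 5 such *Hoxb* genes were at their lowest in replicate 1 of both diets.

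**Figure D5:**
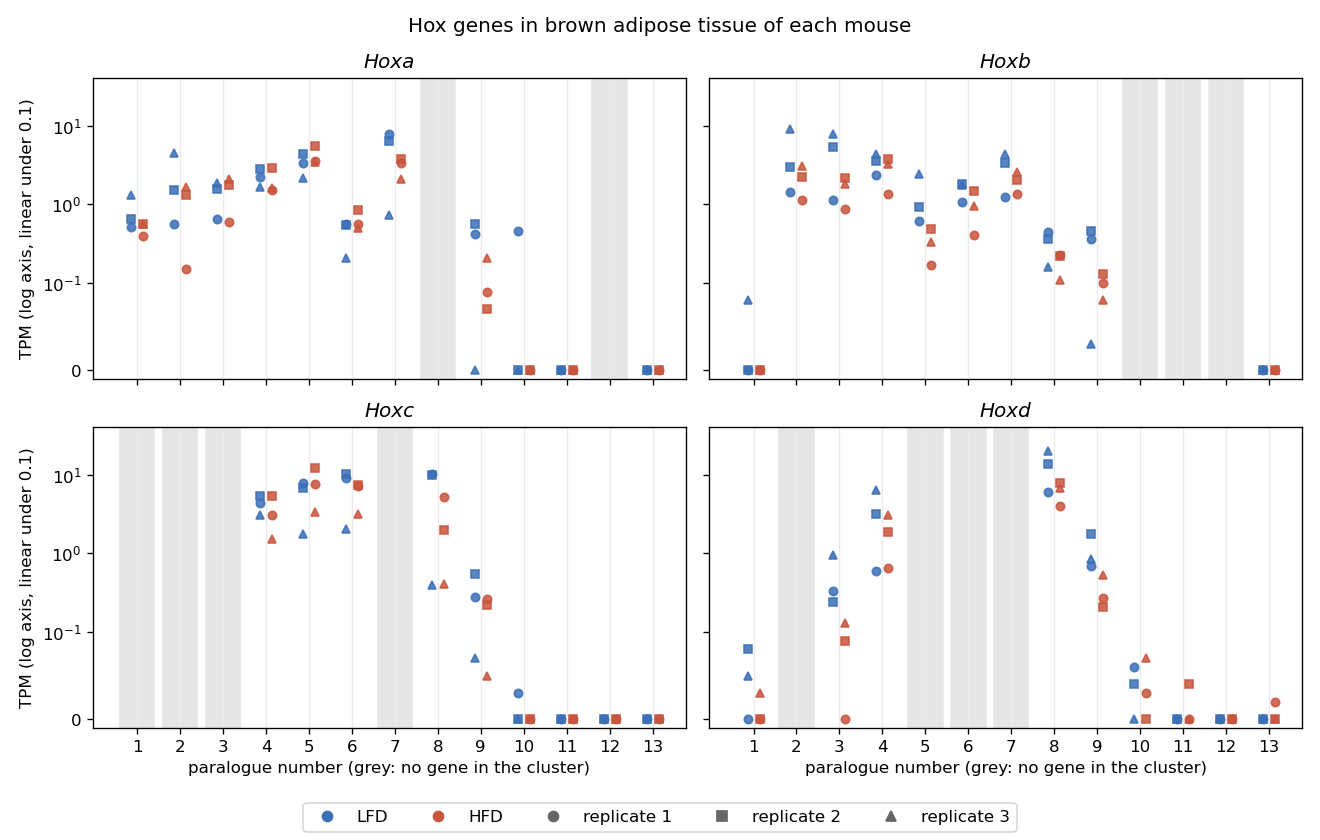
TPM (log axis, linear under 0.1) of the 39 Hox genes in each mouse, by cluster (panels) and paralogue number (horizontal axis), with LFD in blue and HFD in red. Genes up to number 8 carry nearly all of the signal, and of the 9 genes numbered 11 to 13, 7 are at 0 in every mouse.

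Of the 18 other Hox genes tested, 4 had an unadjusted p under 0.05 by edgeR, all lower in HFD-fed mice and none called. These were *Hoxd8* (log2 fold change -0.89, standard error 0.24, unadjusted p = 0.00830), *Hoxb3* (-1.08), *Hoxb5* (-1.43) and *Hoxd9* (-1.44), and the diets did not overlap in log2 CPM of any of them. Of all tested genes, 6.62% were lower at an unadjusted p under 0.05, and 9.23% had all HFD-fed mice below all LFD-fed mice. *Hoxd8* had 3.95, 7.78 and 6.78 TPM in HFD-fed and 6.01, 13.8 and 20.2 TPM in LFD-fed mice. In TPM, LFD replicate 1 lay among the HFD-fed mice for *Hoxd8* and also for *Hoxb3*. The median of the 18 was -0.39 beside -0.05 over all tested genes. The count was 0 without TMM factors, 1 without HFD replicate 1 and 2 without HFD replicate 2, HFD replicate 3 or LFD replicate 2, so it depends on the scaling and on single mice. Among the genes next to the *Hoxc* labels, *Hoxc6* had a log2 fold change of -0.10 and *Hoxc5* of 0.53, both overlapping between the diets.

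Of the 14 other T-box genes, 8 were tested and 2 had an unadjusted p under 0.05, both higher in HFD-fed mice. These were *Eomes* (log2 fold change 2.46, standard error 0.69, adjusted p = 0.290 by edgeR) and *Tbx21* (1.58, unadjusted p = 0.0270), which are factors of cytotoxic lymphocytes. *Eomes* had 0.34, 0.55 and 0.66 TPM in HFD-fed and 0.02, 0.25 and 0.11 TPM in LFD-fed mice. Both lay higher in each HFD-fed mouse in log2 CPM, as did most T and NK cell markers, of which 8 of 12 tested had an unadjusted p under 0.05 and all 12 a positive log2 fold change. Of all tested genes, 3.86% were higher at such a p, and 6.72% had all HFD-fed mice above all LFD-fed mice. The T and NK cell markers summed to 16.2 to 49.4 TPM in HFD-fed and 2.14 to 16.2 TPM in LFD-fed mice. *Mga* (31.5 TPM, log2 fold change 0.05) and *Tbx18* (4.73 TPM, -0.32), the most abundant of these 14 genes, overlapped between the diets. The mean level of *Mga* was also above that of *Tbx15*. With at least 10 counts required in every mouse, the count was 0, since that filter kept neither gene, and it was 1 without HFD replicate 2, HFD replicate 3 or LFD replicate 3.

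Of the 16 other Zic, LIM-homeobox and engrailed genes, 3 passed the filter and none had an unadjusted p under 0.05 by edgeR. *Lhx6* stood at 2.84 TPM with a log2 fold change of 0.44, and *Zic4* at 1.13 TPM with 0.03. *Lhx8* was thus the only LIM-homeobox gene of the list beside *Lhx6* with a mean above 1 TPM.

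Of the 16 other somite and dermomyotome genes, 7 were tested. *Meox1*, a homeobox gene of the somite, was higher in HFD-fed mice, with 2.18, 6.50 and 7.82 TPM against 0.92, 2.20 and 3.15 TPM (log2 fold change 1.64, standard error 0.40, unadjusted p = 0.00514, adjusted p = 0.226 by edgeR). *Meox2* (12.7 TPM) overlapped, with 0.18. Of the 7 tested genes, 3 had a negative and 4 a positive log2 fold change, and only *Meox1* had an unadjusted p under 0.05. The list thus held both signs. *En1* (-1.23, unadjusted p = 0.103 by edgeR, overlapping diets) differed in sign from *Meox1* but had no clear difference itself.

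The other labels of adipocyte kinds were set beside the identity genes. Of 14 other brown adipocyte markers, all tested, 13 had a positive log2 fold change (median 1.37) and 4 an unadjusted p under 0.05 by edgeR, all higher in HFD-fed mice. These were *Prdm16*, a coregulator of brown fat fate (8.30 ± 3.68 TPM in HFD-fed and 3.46 ± 0.297 TPM in LFD-fed mice, SD, n = 3), *Pdk4* (log2 fold change 1.99), *Eva1a* (1.34) and *Dio2*, a deiodinase (2.00). Of all tested genes, 3.86% were higher at an unadjusted p under 0.05. *Eva1a* is a different gene from the brown marker known as *Eva1*, which is *Mpzl2*. *Mpzl2*, also among the 14, had 0.51 (unadjusted p = 0.641 by edgeR, overlapping diets). The mostly positive sign of these markers is opposite to that of *Lhx8* (-1.43, not called), which belongs to the same class of labels. *Zic1*, also of that class, had -0.07 without a settled sign. *Ucp1* had 3.67 with an unadjusted p of 0.0515. Of 11 white adipocyte markers, 10 had a negative log2 fold change (median -1.33) and 4 an unadjusted p under 0.05, namely *Igfbp3* (-1.33), *Agt* (-3.47), *Psat1* (-1.46) and *Serpina3k* (-4.43). Of all tested genes, 6.62% were lower at such a p. Other lists had mostly negative values too. Of 10 general adipocyte markers 8 had a negative log2 fold change (median -0.76) and 1, *Cfd* (-3.26), an unadjusted p under 0.05, and of 12 progenitor and fibroblast markers 10 were negative (median -1.19) and 2, *Dcn* (-1.39) and *Pdgfra* (-1.15), had such a p. Their part in the white marker values was not tested. With the replicate number as a block, which pairs same-numbered mice, 9 of 14 brown and 8 of 11 white markers had such a p by edgeR. In neither fit was a gene called. The block also raised the share of all tested genes at such a p from 10.5% to 17.5%. The count of brown markers was 0 without HFD replicate 2 or LFD replicate 2, 2 without HFD replicate 1 or LFD replicate 3, and 9 without LFD replicate 1. The count of white markers was 9 without HFD replicate 1 and 7 without LFD replicate 3. The share of all tested genes was 6.18% without HFD replicate 2, 7.15% without LFD replicate 2 and 9.62% without HFD replicate 1. It was 14.3% without LFD replicate 1 and 17.3% without LFD replicate 3. Of 8 other beige markers tested, 7 had a positive log2 fold change (median of the 8 was 0.60). The 1 negative gene, *Shox2*, a homeobox gene, was also the only 1 with an unadjusted p under 0.05 by edgeR. *Shox2* had 1.00, 2.84 and 0.55 TPM in HFD-fed and 6.73, 9.81 and 12.3 TPM in LFD-fed mice (log2 fold change -2.33, standard error 0.53, unadjusted p = 0.00356, adjusted p = 0.200 by edgeR).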

How the data were processed

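BAT RNA of 6 mice, 3 on each diet, was depleted of ribosomal RNA and read from a single end over 75 bases. The authors trimmed adapters with Trimmomatic 0.36 and estimated gene levels by RSEM 1.3.0 against GRCm38.p4 with Ensembl 84; the setting for strand is not given in the sources used here. The deposited expected counts are not normalized, and RSEM splits reads shared by several genes. The deposited TPM values were made by the authors from the same reads by effective length. Other deposited columns, in counts or bases, were used only for the spread of shared reads and gene length.

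After rounding to whole numbers, the counts went into edgeR 4.0.16 under R 4.3.3 (quasi-likelihood test, TMM, filterByExpr, no block), over all 17668 genes kept; log2 CPM used a prior count of 2. Alternatives used DESeq2 1.42.0 and limma 3.58.1 on log2(TPM + 1) and log2(TPM + 0.1), other scalings and filters, a muscle score, the replicate block and each mouse left out. The tests were tried on simulated counts first.

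Same-numbered mice deviated together from their diet means, with r over genes of 0.498, 0.229 and 0.522 in the 3 pairs, each above 0.1. Pairs of different numbers ran from -0.528 to 0.053. Deviations of 3 mice from their own mean are tied to each other, so these r values cannot settle whether mice were paired. The replicate numbers come from the labels, and nothing states that they match mice. The 10 genes and the gene lists were chosen with earlier results of these data known. All 10 genes are named; of the other lists, the rule allowed up to 6 genes at an unadjusted p under 0.05, up to 4 of the most abundant and neighbours in the *Hoxc* cluster, and the lists of other cell types are given mostly as counts and sums. *Wdnm1* had no match and *Itgam* had 2, and both were left out. A gene of the somite list is not reported here. A gene at 0 was given a floor of 3 counts. Positions are those of GENCODE M21 (GRCm38).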

Additional observations from a re-analysis of the deposited data

How the results depend on the processing

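The number of the 10 genes that were called was 0 in edgeR and 1 with DESeq2 (*Tbx15*), and 0 in every other setting run. The number at an unadjusted p under 0.05 was 2 and fell to 0 with the skeletal muscle score as a covariate, and it ranged from 2 to 3 with 1 mouse left out. The third gene was *En1* without HFD replicate 1 and *Tmem26* without LFD replicate 3. The share of all tested genes at such a p moved as well. It was 10.5% in the main edgeR fit and 2.07% with the covariate. It was 9.62% without HFD replicate 1 and 17.3% without LFD replicate 3. In the covariate fit the log2 fold changes of *Hoxc8*, *Hoxc9* and *Tmem26* turned to 5.87, 4.22 and -0.91. With the replicate block, *Zic1* turned to 0.057, *Tbx15* had -2.16 (edgeR adjusted p = 0.0642) and *Lhx8* -1.44 (edgeR adjusted p = 0.173), and the block changed no call among the 10 genes. With 1 mouse left out, *Zic1* ranged from -0.50 to 0.43 and *Hoxc9* from -1.23 to 0.022, so neither has a settled sign. On the TPM scale the median of all genes lay at -0.18 (log2(TPM + 1)) or -0.22 (log2(TPM + 0.1)), beside -0.05 by edgeR. The cause of these shifts was not tested.

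Over all genes, 0 were called by edgeR, 412 by DESeq2 and 1 by limma on log2(TPM + 1). The unadjusted p was under 0.05 for 1851 genes, 3094 with the replicate block, 366 with the muscle covariate, and from 1106 without HFD replicate 3 to 3146 without LFD replicate 3. *Tbx1*, *Hoxc9* and *Hoxc10* are limited by depth, with at most 8, 18 and 1 counts per mouse.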
